A study of Mus musculus with 8 samples.

Results

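The clustered histone genes were examined in RNA-Seq of P14 CD8 T cells, as the rows of the deposited table whose symbol begins with Hist1h, Hist2h, Hist3h or Hist4h and whose value reached at least 10 in at least 1 of the 8 libraries. Of 24303 genes listed, 8 carried such a symbol and 5 reached 10. They were *Hist1h2an*, *Hist1h2ao* and *Hist1h2ap* of class H2A, *Hist1h2br* of class H2B and *Hist1h4n* of class H4, all on chromosome 13. The members nearest the threshold were *Hist1h2an*, with a maximum of 11.9, inside it, and *Hist1h2bq*, with a maximum of 9.89, outside it. *Hist1h4m* reached 7.60 and *Hist1h2bp* reached 5.59. Most clustered histone genes were listed under newer symbols, such as *H1f2* or *H4c9*. RefSeq synonyms joined 70 genes to the older symbols, of which 62 were listed and 50 reached 10, the 5 above included. These 50 comprised 4 H1, 15 H2A, 12 H2B, 9 H3 and 10 H4 genes. This wider family was defined after the symbols of the table had been seen, and only 11 of its 50 genes had a mean of at least 50.

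Histones package DNA into nucleosomes, whose core holds H2A, H2B, H3 and H4, while H1 binds the linker between nucleosomes. Many near-identical copies of each lie in clusters, and most are transcribed mainly during S phase, when replicated DNA needs new nucleosomes. Their messages typically end in a short stem-loop bound by SLBP instead of a poly(A) tail, although some of these genes also make polyadenylated messages. The libraries were made with poly(A) selection, so the values report only histone RNA that passed this step, and a level here is not the total histone RNA of the cells.

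The T cell receptor of P14 cells is a transgene that recognises GP33, a peptide of lymphocytic choriomeningitis virus. Splenic CD8 T cells of uninfected adult male or female P14 mice were activated for all 4 conditions on plates coated with anti-CD3 and anti-CD28 and cultured in vitro, with IL-2 during activation. From day 2 the medium held IL-2 and IL-15. Effector cells were purified on day 7, and the paper labels day 7 effectors as stimulated for 7 days. Acute-2d cells received no GP33 after the 2 days on plates, Acute-7d cells received it until day 7, and T_Dysf cells received it until day 19 together with TGF-β1 from day 7, and these 3 conditions were purified on day 19. Each condition had 2 libraries that the series calls biological replicates, without naming animals or cultures, so the tests measure the spread between these libraries. Values are normalized counts, which are read counts divided by the size factor of each library.

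Depth ran from 19381799 to 24856512 reads per library on genes, as estimated from the smallest steps between values, and 3 reads were worth between 2.59 and 3.35 normalized counts. This floor covers counting error only. CD8 T cell markers (*Cd3e*, *Cd3d*, *Cd8a*, *Cd8b1*, *Trac*, 5 of 5 listed) summed to between 44591 and 91137 in every library. Summed levels over all libraries ran from 9.46 to 50.6 for CD4 T cells, 19.0 to 38.1 for B cells, 297 to 709 for myeloid cells, 245 to 1489 for NK cells, 17.3 to 42.6 for erythroid cells and 13.0 to 35.7 for dendritic cells. The plasma cell markers *Jchain* and *Sdc1* summed to 349 and 423 in the T_Dysf libraries and to between 7.07 and 23.8 elsewhere, and their part in the T_Dysf differences was not tested. Library names marked both Effector libraries and Acute-7d replicate 1 as RESUB, so a term for this mark is estimated from the 2 Acute-7d libraries alone. In these bulk samples, fewer cells of a type and less RNA per cell cannot be told apart.

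The 3′ stem-loop and the bases just before it are shown because the abundant members carry a run of A there that few family genes share. They were read from the GENCODE vM21 transcripts of GRCm38, 5′ to 3′, with the 16 bases of the stem-loop in capitals.
Hist1h2ap: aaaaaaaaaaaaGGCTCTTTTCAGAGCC
Hist1h2ao: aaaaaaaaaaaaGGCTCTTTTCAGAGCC
Hist1h4n: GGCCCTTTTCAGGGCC
A stem of 6 pairs with a loop of 4 bases was found after the stop codon in 36 of the 43 family genes whose transcript model extends past that codon. Any extension counted, so some of these models can be too short to hold the stem-loop. The form carried by *Hist1h2ao* and *Hist1h2ap* occurred in 22 family genes and that of *Hist1h4n* in 5. *Hist1h2ap* and *Hist1h2ao* had a run of 12 A directly before the stem-loop. Among 49 family genes with a transcript model, 4 held a run of at least 10 A, the other two being *H2ac6* with 15 and *H2bc6* with 11. Both of these have longer transcripts, of at least 2099 bases. Of the 33 family genes whose models are all at most 1000 bases long, only the pair of near copies held such a run, against 1.11% of 18815 protein-coding transcripts of that length. *Hist1h2an* was modelled as coding sequence alone, and none of the 3 *Hist1h2br* models showed the stem-loop, while 2 of them ended with a poly(A) signal.

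*Hist1h2ap* (chr13:21833026-21833507, minus strand) and *Hist1h2ao* (chr13:21810465-21810944, plus strand) are single-exon H2A genes of 482 and 480 bases in this annotation. Their coding sequences of 393 bases did not differ at any base, and 452 bases in a row were identical, so 92.2% of the 100-base windows of *Hist1h2ap* also occurred in *Hist1h2ao*. Reads of the pair can therefore be divided between its members by the counting itself, and both their sum and their separate values are given. *Hist1h2an* (chr13:21786826-21787218, minus strand) differed from *Hist1h2ap* at 5 of 393 coding bases. *Hist1h4n* (chr13:21831767-21832196, minus strand) shared its coding sequence of 312 bases with *Hist1h4m*. *Hist1h2br* (chr13:21833743-21837530, plus strand) shared its coding sequence of 381 bases with *Hist1h2bq*. The share of 100-base windows found in another clustered histone gene was 83.3% for *Hist1h2an*, 80.7% for *Hist1h4n* and 86.4% for *Hist1h2br*, so all 5 members are uncertain as single genes.

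The upstream sequences are shown because *Hist1h2ap* and *Hist1h2ao* are near copies and because *Hist1h2ap* and *Hist1h2br* start on opposite strands from the same stretch. They come from RefSeq for GRCm38.p6, within 250 bases before each start, leaving out bases inside any transcript of the family, and run 5′ to 3′ on the strand of the gene. Capitals mark the letters CCAAT, matches of the TATA box TATAAA, and the E2F-type site TTTCGCG, each on either strand.
Hist1h2ap (chr13:21833508-21833725, minus): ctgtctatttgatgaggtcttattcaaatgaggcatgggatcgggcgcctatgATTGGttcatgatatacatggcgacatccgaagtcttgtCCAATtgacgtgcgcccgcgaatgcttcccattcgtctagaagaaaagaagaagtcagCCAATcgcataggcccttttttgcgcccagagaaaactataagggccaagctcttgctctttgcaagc
Hist1h2ao (chr13:21810198-21810366, plus): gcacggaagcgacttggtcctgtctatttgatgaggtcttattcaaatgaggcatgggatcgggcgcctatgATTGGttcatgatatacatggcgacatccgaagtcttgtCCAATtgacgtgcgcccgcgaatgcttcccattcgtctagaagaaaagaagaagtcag
Hist1h2an (chr13:21787249-21787460, minus): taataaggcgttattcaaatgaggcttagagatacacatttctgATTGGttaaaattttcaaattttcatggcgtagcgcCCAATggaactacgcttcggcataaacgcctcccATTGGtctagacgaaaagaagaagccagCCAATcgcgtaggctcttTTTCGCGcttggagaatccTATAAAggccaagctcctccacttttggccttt
The upstream stretches of *Hist1h2ap* and *Hist1h2ao* shared 150 bases in a row. CCAAT on either strand, the core of a common promoter element, occurred 3, 2 and 4 times in the stretches of *Hist1h2ap*, *Hist1h2ao* and *Hist1h2an*. The *Hist1h2ao* stretch ends before its RefSeq start of 21810367, while its GENCODE transcript starts at 21810465. The shared run stops at that end, just before the last CCAAT of *Hist1h2ap*. Counts of this pair thus cover unlike positions and do not show that *Hist1h2ao* lacks an element. Over the 250 bases before each start, CCAAT was present in 36 of 44 family genes with a RefSeq promoter (81.8%) and in 37.5% of all 27025 genes. By class these were 4 of 4 H1, 15 of 15 H2A, 9 of 9 H2B, 6 of 7 H3 and 2 of 9 H4 genes. The octamer ATTTGCAT was present in 10 of 44 family genes, 5 of them H2A and 5 H2B, and in 1.81% of all genes. TTTCGCG, an E2F-type site, was present in 6 of 44 and in 0.814% of all genes, and TATAAA in 17 of 44 and in 14.3% of all genes. AAACACA, the H1 box, was present in all 4 H1 genes and in 7.20% of all genes. These motifs were searched on both strands and do not overlap each other in these letters, and divergent H2A and H2B genes share windows.

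The H2A gene *Hist1h2ap* was the most abundant clustered histone gene and was highest in Effector cells. Its normalized counts were 11353 and 15548 in Effector, 1687 and 1679 in Acute-2d, 1422 and 1999 in Acute-7d, and 4136 and 3655 in T_Dysf. The Effector libraries stood above all others, both T_Dysf libraries stood above all 4 Acute libraries, and Acute-2d fell within the range of Acute-7d. *Hist1h2ap* ranked 232 and 149 among all genes of the Effector libraries, 1013 and 1218 in T_Dysf, and between 2386 and 3332 in the Acute libraries. Per kb of transcript, its mean level over conditions was 10757, against 888 for *Hist1h2ao*, 778 for *H1f2* and 201 for *H4c9*, the next in order.

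*Hist1h2ap* was 7.99-fold higher in Effector than in Acute-2d (log2 difference 2.98 ± 0.22, SE, limma adjusted p = 0.00773) and 7.86-fold higher than in Acute-7d (2.98 ± 0.22, adjusted p = 0.00886). Log2 differences were taken on the log2(normalized count + 1) scale, and a gene was called where it changed at least 2-fold with p, adjusted over all genes by the Benjamini-Hochberg method, under 0.05. Both calls held without any 1 of the 8 libraries but were lost where the 2 conditions were fitted alone. Among RESUB libraries alone, the Effector values stood against 1422 in Acute-7d replicate 1. T_Dysf was 3.45-fold lower than Effector (-1.77 ± 0.22, adjusted p = 0.0127), a call lost without either T_Dysf library, with a term for the RESUB mark or with the 2 conditions fitted alone.

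In T_Dysf, *Hist1h2ap* was 2.28-fold higher than in Acute-7d (1.20 ± 0.22, limma adjusted p = 0.0414) and 2.31-fold higher than in Acute-2d (1.21 ± 0.22, adjusted p = 0.0341). The call against Acute-7d was lost without any 1 of the 6 libraries of T_Dysf, Acute-7d or Acute-2d, and that against Acute-2d without any 1 of its 4 libraries, with differences between 0.96 and 1.45 and between 1.12 and 1.30. Both calls were also lost with the replicate number as a block, and that against Acute-7d with the RESUB term or with its 2 conditions fitted alone. Acute-7d and Acute-2d differed by 0.00 (95% interval -0.58 to 0.58).

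*Hist1h2ao*, its near copy, had normalized counts of 1055 and 1297 in Effector, 168 and 172 in Acute-2d, and 159 and 189.5 in Acute-7d. In T_Dysf it was at 0.042 in replicate 1 and 372 in replicate 2. It amounted to between 8.34% and 11.1% of *Hist1h2ap* in 7 libraries and to 0.00101% in T_Dysf replicate 1. Effector replicates stood above all other libraries, while the T_Dysf libraries lay on both sides of the Acute libraries. No comparison of *Hist1h2ao* was called, with an SE of 2.72 on the log2 scale. Without T_Dysf replicate 1, its differences were called for Effector against Acute-2d, Effector against Acute-7d and T_Dysf against Effector. Without T_Dysf replicate 2, which leaves the library at 0.042, these 3 and both T_Dysf against Acute comparisons were called. T_Dysf was then lower, at -7.39 against Acute-7d and -7.36 against Acute-2d. Without T_Dysf replicate 1 these differences were 1.10 and 1.12, in the other direction.

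Summed, the pair reached 12407 and 16845 in Effector, 1855 and 1851 in Acute-2d, 1581 and 2189 in Acute-7d, and 4136 and 4027 in T_Dysf. The T_Dysf libraries lay closer together in this sum than in *Hist1h2ao* alone. With the pair as 1 gene, Effector was 7.89-fold above Acute-2d (2.96 ± 0.21, limma adjusted p = 0.00676) and 7.76-fold above Acute-7d (2.96 ± 0.21, adjusted p = 0.00790). T_Dysf was 2.17-fold above Acute-7d (1.13 ± 0.21, adjusted p = 0.0406), 2.20-fold above Acute-2d (1.14 ± 0.21, adjusted p = 0.0334) and 3.58-fold below Effector (-1.82 ± 0.21, adjusted p = 0.0106). The pair made up 88.0% and 90.9% of the family's summed counts in Effector, 59.2% and 65.0% in T_Dysf, and between 29.5% and 49.7% in the Acute libraries.

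*Hist1h2an*, the remaining H2A member, was near the floor and reached 10 only in Effector libraries, so that the threshold itself favoured a higher Effector level. Its normalized counts were 11.9 and 10.1 in Effector, 0.015 and 2.47e-08 in Acute-2d, 4.31 and 1.43 in Acute-7d, and 4.13 and 8.75 in T_Dysf. Effector stood above all other libraries and Acute-2d below all others. Against the mean floor of the Acute-2d libraries, *Hist1h2an* was at least 3.45-fold higher in Effector and at least 2.01-fold higher in T_Dysf. The calls tested other quantities, log2 differences of 3.57 (limma adjusted p = 0.0178) and 2.81 (adjusted p = 0.0299) that depend on the added count of 1. Over the alternatives these differences fell to as low as 1.07 and 0.70, the latter under 2-fold. The Effector call was lost without Effector replicate 2 or either Acute-2d library, and the T_Dysf call without any 1 library of Effector, Acute-2d or T_Dysf.

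*Hist1h2br* encodes H2B and shares the 235 bases between its start and the *Hist1h2ap* transcript. It had normalized counts of 8.0 and 13.6 in Effector, 14.3 and 9.49 in Acute-2d, 19.0 and 6.07 in Acute-7d, and 11.6 and 24.9 in T_Dysf. The 4 conditions overlapped. The Effector against Acute-2d difference was -0.15 with a 95% interval of -1.98 to 1.69, which does not exclude a change of several fold in either direction.

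*Hist1h4n*, which encodes H4, was at 1.5e-05 and 20.6 in Effector, 6.66 and 5.40 in Acute-2d, 4.68 and 5.33 in Acute-7d, and 5.41 and 4.11 in T_Dysf. Only the Effector libraries were far apart, on either side of the rest. No comparison of *Hist1h4n* was called with all libraries, and that of T_Dysf against Effector, 0.30 (95% interval -3.42 to 4.02), became -1.91 without Effector replicate 1 and 2.52 without Effector replicate 2. T_Dysf against Effector was called without either Effector library, in opposite directions. Without Effector replicate 2, which leaves the library near 0, Effector against Acute-7d (-2.58) and Acute-2d (-2.81) were also called.

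**Figure D1:**
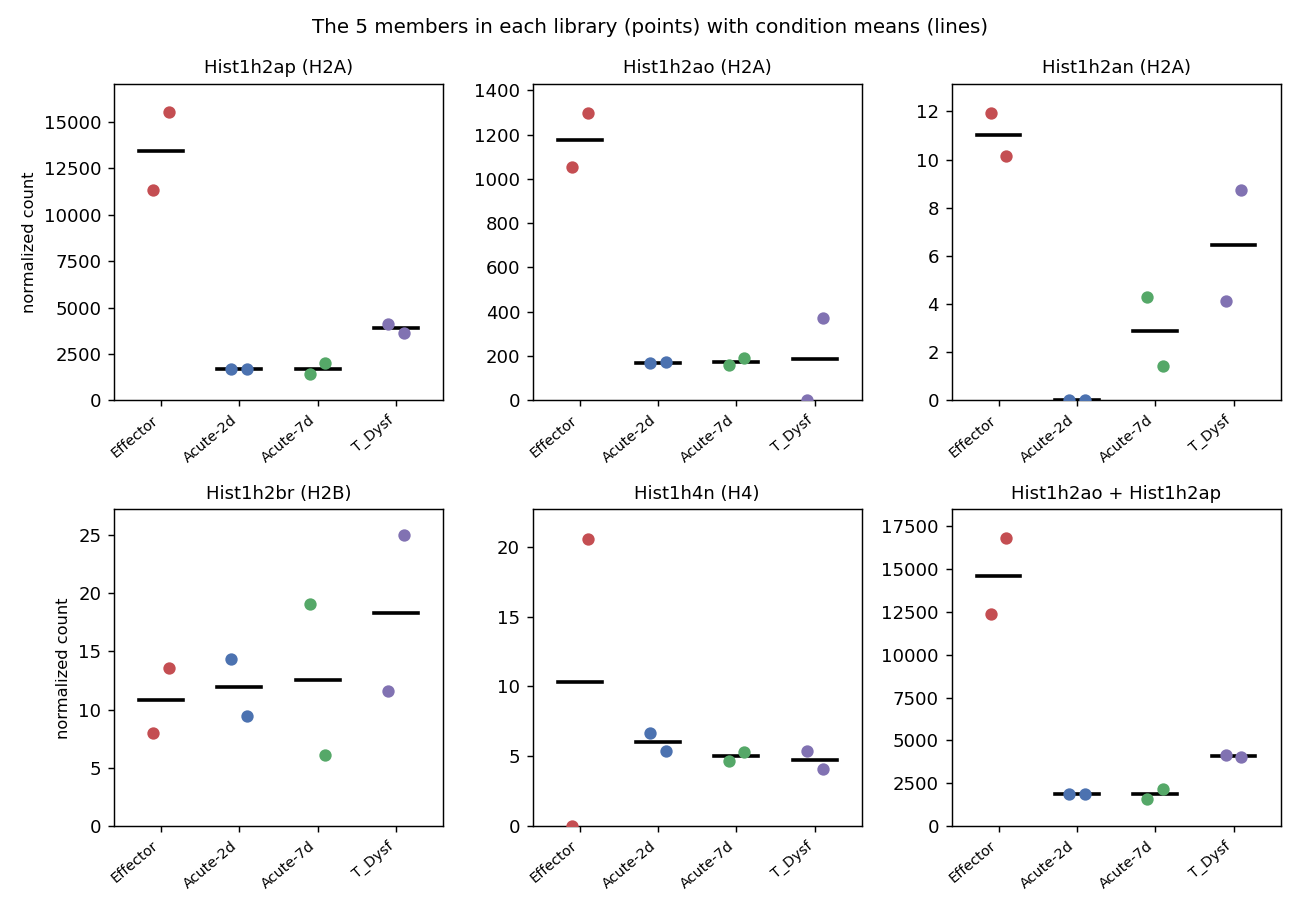
Normalized counts (vertical axes, linear from 0) of the 5 members and of the summed *Hist1h2ao* and *Hist1h2ap* pair in the 4 conditions, with a point for each library and a line for the mean of 2. *Hist1h2ap* stands at 11353 and 15548 in Effector, and *Hist1h2ao* falls to 0.042 in 1 T_Dysf library where the sum stays at 4136.

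By these calls, 1 of the 5 members rose in Effector against Acute-7d and 2 rose against Acute-2d, where 8.06% and 8.78% of all genes were called in either direction. *Hist1h2an*, called against Acute-2d, and *Hist1h4n* reached 10 only in Effector libraries, so that the threshold itself favoured a higher Effector level of both. Against Effector, 1 of 5 fell in T_Dysf, where 9.22% of all genes were called. In T_Dysf, 1 of 5 rose against Acute-7d and 2 against Acute-2d, where 5.57% and 7.35% of all genes were called. Among the 17167 genes that reached 10, the shares called in these comparisons were 10.6%, 11.4%, 12%, 7.04% and 9.39%, in the same order. Between Acute-7d and Acute-2d, limma called 0 of 5 members and 0 of 50 family genes, and 0.169% of all genes were called. At an unadjusted p under 0.05 these were 1 member, 4 family genes and 910 genes in all. With so few members these shares are coarse, and 24303 genes were tested in each comparison.

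Across the wider family, Effector differed from both Acute conditions in both directions. Against Acute-7d, 10 of 50 genes rose and 1 fell, and against Acute-2d, 12 rose and 2 fell, or 22% and 28% called. Among the 17167 genes of the table that reached 10, 10.6% and 11.4% were called. The median log2 difference over the 50 genes was 1.37 and 1.30, against -0.03 in both comparisons over those 17167 genes. In T_Dysf, 2 genes rose against Acute-7d and 3 against Acute-2d, and 2 rose and 3 fell against Effector, or 4%, 6% and 10% of the family, below the 7.04%, 9.39% and 12% of those 17167 genes. For the Effector comparisons, 18 of the 50 genes reached 10 only in Effector libraries, so that the threshold itself favoured a higher Effector level. Of the other 32, 6 rose and 1 fell against Acute-7d, and 6 rose and 2 fell against Acute-2d, with medians of 0.27 and 0.49. The RESUB term, with which 3 and 1 of the 50 were called, and leaving out 1 library, which left between 2 and 10 and between 2 and 14, reduced these counts.

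Of the 4 H1 genes, 3 had negative differences between Effector and each Acute condition, and *H1f5* had positive ones that were not called. *H1f2*, the most abundant of the 4 clustered H1 genes, had normalized counts of 454 and 192 in Effector, 1806 and 2034 in Acute-2d, 1996 and 872 in Acute-7d, and 982 and 1372 in T_Dysf. Effector stood below all other libraries, while the other conditions overlapped in part. Its Effector level was 5.95-fold below Acute-2d (-2.70 ± 0.58, limma adjusted p = 0.0420), a call lost without any 1 library except Effector replicate 1, and the 4.44-fold lower value against Acute-7d was not called. *H1f4* and *H1f3* had means of 19.7 and 17.1 over the libraries and were not called in any comparison.

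Besides the members above, H2A held genes that moved in opposite directions. *H2aw* had normalized counts of 123 and 82.6 in Effector, 489 and 533 in Acute-2d, 717 and 492 in Acute-7d, and 254 and 305 in T_Dysf. Its conditions ran from Effector through T_Dysf to the overlapping Acute conditions. *H2aw* fell 5.86-fold in Effector against Acute-7d (-2.54 ± 0.27, limma adjusted p = 0.0141) and 4.96-fold against Acute-2d (-2.33 ± 0.27, adjusted p = 0.0136), and rose 2.71-fold in T_Dysf against Effector (1.45 ± 0.27, adjusted p = 0.0308). The first was lost without Acute-7d replicate 1, the second without either Acute-2d library, and the third without any 1 of 5 libraries, which were Effector replicate 2 and those of Acute-2d and T_Dysf. *H2ac11* was at 69.7 and 126 in Effector and between 9.20 and 42.0 elsewhere, and rose in Effector against Acute-7d (3.05 ± 0.53, adjusted p = 0.0285) and Acute-2d (2.86 ± 0.53, adjusted p = 0.0310). *H2ac10* was at 13.0 and 27.0 in Effector and 0 and 2.24 in Acute-2d, and rose there (3.46 ± 0.79, adjusted p = 0.0495), a call lost without any 1 library. The near copies *H2ac18* and *H2ac19* share every 100-base window of *H2ac19* and summed to 50.9 and 38.3 in Effector, 246 and 260 in Acute-2d, 281 and 198 in Acute-7d, and 138 and 130 in T_Dysf. Their sum was lowest in Effector and next lowest in T_Dysf. Neither gene was called alone, and the sum was not tested.

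H2B genes were called in 1 direction only, higher. *H2bc11*, *H2bc14*, *H2bc12*, *H2bc9* and *H2bc3* rose in Effector against Acute-7d. Of these, *H2bc14*, *H2bc12* and *H2bc3* reached the threshold for the family only in Effector libraries, so that the threshold itself favoured their rise. *H2bc11* was at 29.9 and 61.1 in Effector, 5.27 and 2.16 in Acute-2d, 2.23 and 2.47 in Acute-7d, and 17.6 and 4.89 in T_Dysf, and *H2bc14* was at 6.4 and 21.2 in Effector and at 0 in both Acute-7d libraries, which makes it at least 4.33-fold higher in Effector. The *H2bc11* calls were lost without any 1 library and the *H2bc14* call without any 1 of 7. *H2bc4* was higher in T_Dysf than elsewhere, with normalized counts of 86.8 and 53.6 in Effector, 45.1 and 54.4 in Acute-2d, 65.9 and 60.3 in Acute-7d, and 162 and 204 in T_Dysf. It rose in T_Dysf 2.90-fold against Acute-7d (1.51 ± 0.29, limma adjusted p = 0.0442), 3.67-fold against Acute-2d (1.85 ± 0.29, adjusted p = 0.0225) and 2.60-fold against Effector (1.40 ± 0.29, adjusted p = 0.0384), calls lost without any 1 of 6, 6 and 7 libraries. *H2bc21* and *H2bu2*, with means of 129 and 111, were not called in any comparison.

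H3 genes were low, and all 9 had a positive difference between Effector and each Acute condition. Most of them reached 10 only in Effector libraries, so that the threshold itself favoured these positive differences. *H3c3* had normalized counts of 53.4 and 101 in Effector, 1.13 and 2.16 in Acute-2d, 2.61 and 1.22 in Acute-7d, and 12.4 and 8.89 in T_Dysf. The 3 groups of Effector, T_Dysf and Acute libraries did not overlap. *H3c3* rose in Effector against Acute-2d (4.84 ± 0.50, limma adjusted p = 0.0116) and Acute-7d (4.71 ± 0.50, adjusted p = 0.0139) and fell in T_Dysf against Effector (-2.69 ± 0.50, adjusted p = 0.0303). The Acute values lay under 3 reads, so these differences depend on the added count of 1, and the calls were lost without Acute-2d replicate 1, without either Acute-7d library, and without any 1 of 7 libraries. *H3c1* and *H3c6* had means of 12.5 and 11.3 and were not called.

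Of the H4 genes, *H4c9* was at 281 and 284 in Effector, 83.7 and 104 in Acute-2d, 85.4 and 74.6 in Acute-7d, and 124 and 133 in T_Dysf. Replicates lay close together, and T_Dysf lay between the Effector and the Acute libraries. *H4c9* was 3.0-fold higher in Effector than in Acute-2d (1.58 ± 0.15, limma adjusted p = 0.0105) and 3.53-fold higher than in Acute-7d (1.81 ± 0.15, adjusted p = 0.0105), and both calls held without any 1 library. It was 2.19-fold lower in T_Dysf than in Effector (-1.13 ± 0.15, adjusted p = 0.0139), a call lost without Effector replicate 2 or T_Dysf replicate 1. *H4c3*, at 10.3 and 12.5 in Effector and between 2.16 and 4.38 in the Acute libraries, also rose against both. It reached 10 only in Effector libraries, so that the threshold itself favoured this rise. *H4c4* and *H4c8*, with means of 20.5 and 9.14, were not called.

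**Figure D2:**
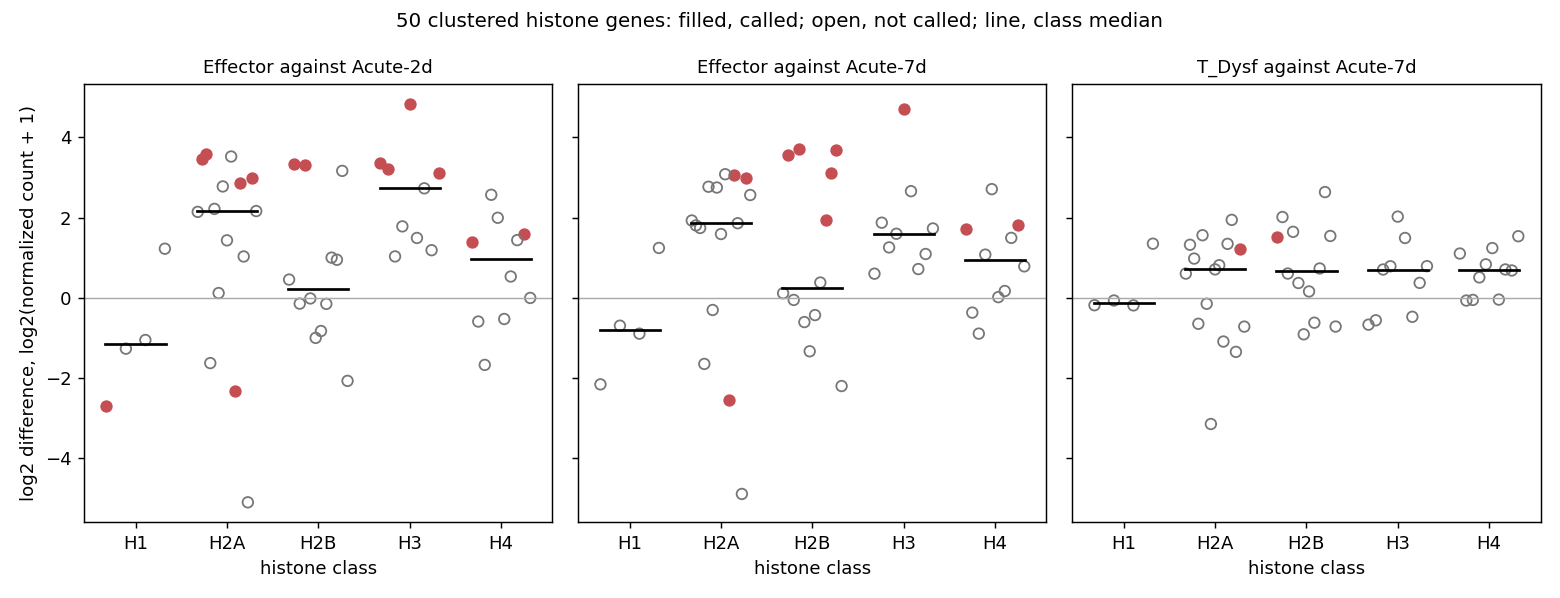
Log2 difference on the log2(normalized count + 1) scale (vertical axis) of each of the 50 family genes by class (horizontal axis), for 3 comparisons. Filled points were called, open points were not, and lines are class medians, which for H3 stand at 2.73 and 1.60 in the Effector comparisons and for H1 at -1.16 and -0.79. Most H3 genes reached the threshold only in Effector libraries, which favoured positive H3 differences there.

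Summed over each class, the family had no single order of conditions. H3 sums were 130 and 255 in Effector, 25.8 and 27.8 in Acute-2d, 42.6 and 39.3 in Acute-7d, and 63.9 and 62.9 in T_Dysf, and H4 sums were 350 and 428, 139 and 155, 140 and 112, and 209 and 193 in the same order. H1 sums were 473 and 233, 1852 and 2095, 2048 and 906, and 1026 and 1414. H2B sums differed least, at 384 and 378, 427 and 484, 509 and 424, and 467 and 561. Effector was thus highest in H3 and H4 and lowest in H1 and H2B. Without *Hist1h2ao* and *Hist1h2ap* the other 48 genes summed to 1693 and 1685 in Effector, 3214 and 3595 in Acute-2d, 3781 and 2213 in Acute-7d, and 2232 and 2780 in T_Dysf. Effector was lowest in this sum, whereas with the pair included it was highest, at 14101 and 18530 against 4402 to 6807 elsewhere. The lowest place rested on *H1f2*, since the 47 genes left without it summed to 1239 and 1494 in Effector, 1249.6 and 1408 in T_Dysf, 1785 and 1341 in Acute-7d, and 1408 and 1562 in Acute-2d, and the conditions overlapped.

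**Figure D3:**
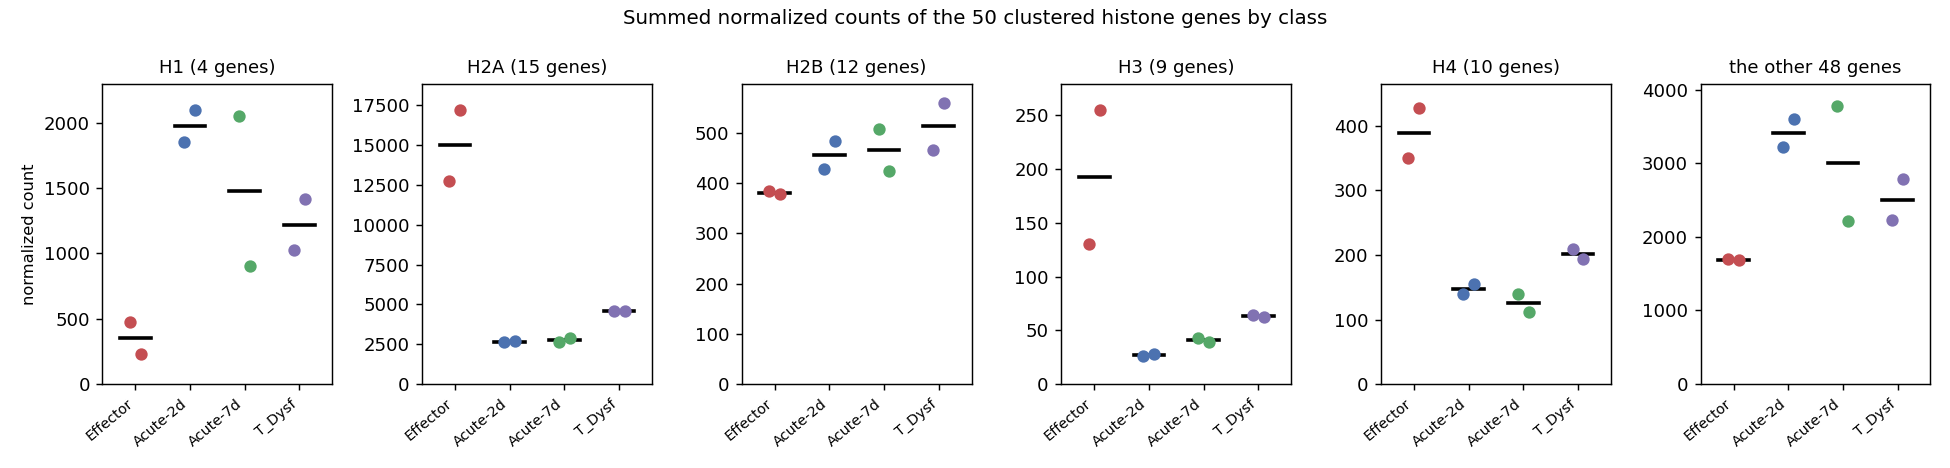
Summed normalized counts (vertical axes, linear from 0) of each histone class in the 4 conditions, a point for each library and a line for the mean of 2. Effector is highest for H2A, H3 and H4 and lowest for H1, H2B and the 48 genes left without *Hist1h2ao* and *Hist1h2ap*. Single genes, such as *H1f2* in H1 and *H4c9* in H4, carried much of these sums.

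By library, Effector stood above the other 6 in 22 of the 50 genes (44%) and below them in 7 (14%), against 19.5% and 17.1% of genes that reached 10. Among the 32 genes that reached 10 outside Effector these were 11 and 7, or 34.4% and 21.9%, against 18.7% and 17.4% of 16796 genes. The 7 below were *H1f2*, *H2ac18*, *H2ac19*, *H2aw*, *H2bc21*, *H2bc8* and *H4c14*. Their transcript models had a median of 1560 bases, against 527 for the 22 above, and 4 of 7 against 2 of 22 had AATAAA or ATTAAA in the last 60 bases of a model. Both groups kept the stem-loop in most models, 6 of 7 and 18 of 22. Of the 22 above, 11 reached 10 only in Effector libraries, so the threshold shaped this group. The 21 genes that overlapped had a median of 758.5 bases, and 6 of the 20 with a model had such a signal. Models that end at the stop codon, such as those of *H3c10* and *Hist1h2an*, cannot show either feature. T_Dysf stood above all 4 Acute libraries in 14 of the 50 genes (28%) and below in 3 (6%), against 27.0% and 26.9% of genes that reached 10, a share above that is near the background.

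**Figure D4:**
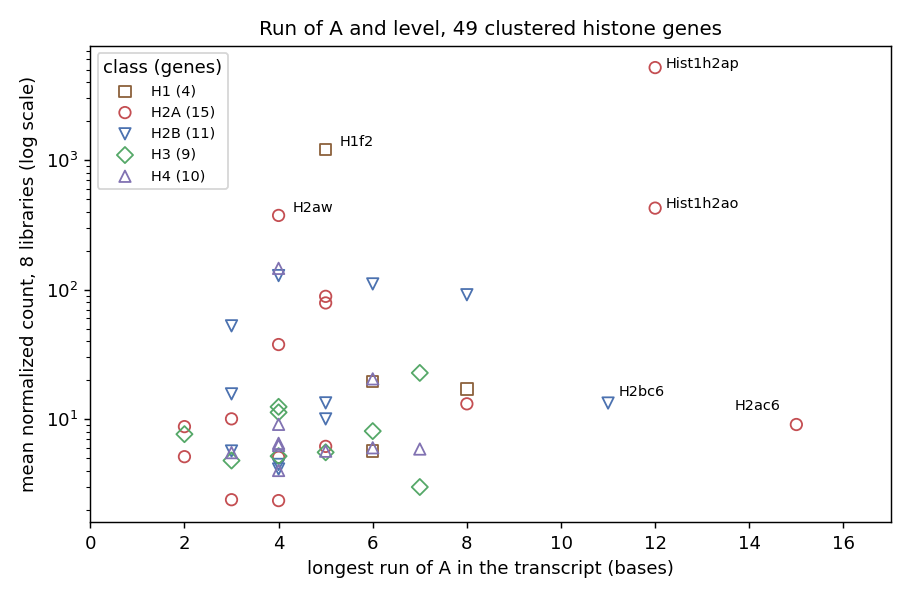
Mean normalized count over 8 libraries (vertical axis, log scale) against the longest run of A in the transcript models (horizontal axis, bases) for 49 family genes, with a symbol for each class. *Hist1h2ap* and *Hist1h2ao* have runs of 12, while *H2ac6* and *H2bc6*, with runs of 15 and 11, have means of 9.11 and 13.3, and *H1f2*, with a run of 5, has a mean of 1214.

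Genes that act with the clustered histones moved as follows, beside the shares of all genes called in either direction. These shares were 8.06% and 8.78% in Effector against Acute-7d and Acute-2d. In T_Dysf they were 5.57%, 7.35% and 9.22% against Acute-7d, Acute-2d and Effector. Among the 17167 genes that reached 10, they were 10.6%, 11.4%, 7.04%, 9.39% and 12%, in the same order. Of 18 DNA replication genes, 16 rose in Effector against Acute-7d and 15 against Acute-2d, 4 fell and 0 rose in T_Dysf against Effector, and 1 rose in T_Dysf against Acute-7d. Against Acute-2d, limma called 0 of 18 in T_Dysf, with 7 at an unadjusted p under 0.05. *Pcna*, the sliding clamp of DNA polymerases, averaged 10337 in Effector against 2978 in Acute-7d and 3118 in Acute-2d (limma adjusted p = 0.0235 and 0.0237). *Gins1*, of the replicative helicase, was the gene that rose in T_Dysf against Acute-7d, from 38.4 to 186. Of 17 genes that make or process histone messages, 4 rose in Effector against Acute-7d and 5 against Acute-2d, among them *Ccne1*, which encodes cyclin E1, and *Eri1*, a nuclease that acts on the stem-loop. *Slbp*, which binds the stem-loop, had means of 3185 in Effector and 1435 in Acute-2d (1.11 ± 0.26, adjusted p = 0.0496). In T_Dysf, *Ccne1* and *Cdk2* rose against Acute-7d, limma called 0 of 17 against Acute-2d with 1 at an unadjusted p under 0.05, and *Ccne1* and *Lsm11* fell against Effector.

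Of 18 histone chaperones, 5 rose in Effector against each Acute condition, namely *Asf1b*, *Chaf1a*, *Chaf1b*, *Nasp* and *Supt16*. The shares of all genes called were 8.06% and 8.78% in Effector against Acute-7d and Acute-2d. In T_Dysf they were 5.57%, 7.35% and 9.22% against Acute-7d, Acute-2d and Effector. *Chaf1a*, of the complex that places new H3 and H4 on replicated DNA, averaged 2823 in Effector, 1249.5 in T_Dysf, 482 in Acute-7d and 473 in Acute-2d, and rose in T_Dysf against Acute-2d (1.40 ± 0.30, limma adjusted p = 0.0492). The importin gene *Ipo4* fell in T_Dysf against all 3 other conditions, with a mean of 428 against 1011 in Effector, 1105 in Acute-7d and 1006 in Acute-2d (adjusted p = 0.00733, 0.00720 and 0.00707). Of 13 replication-independent histones, 3 rose in Effector against each Acute condition. They were *Cenpa*, the centromeric H3, with means of 4336 in Effector against 997 in Acute-2d and 888 in Acute-7d, *H2ax*, which is phosphorylated at DNA breaks, with means of 2939 against 1022 and 1000.2, and *H2az1* with 5763 against 2078 and 2076. In T_Dysf, *H2az1* rose against Acute-2d, *Cenpa* and *H2ax* fell against Effector, and limma called 0 of 13 against Acute-7d, with 2 at an unadjusted p under 0.05. Of 10 RNAs made without a poly(A) tail, 8 were listed, summing to between 2777 and 4985 in every library, and limma called 0 of 8 in each of the 6 comparisons. At an unadjusted p under 0.05, 1 of 8 was lower in T_Dysf against Acute-2d, 1 of 8 was lower in T_Dysf against Effector, and 0 in the others.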

How the data were processed

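RNA was extracted from sorted P14 cells, and libraries were made with poly(A) selection. The authors aligned reads to mm10 with STAR, quantified them to RefSeq transcripts in Partek Flow and divided them by DESeq2 median-ratio size factors before deposit. The deposited values are therefore a signal, a normalized count per gene and library, that need not be whole. Under 1000 reads, between 53.0% and 73.7% of values were whole multiples (within 0.02 reads) of the worth of 1 read, so no count model was fitted. The methods name a filter on low maxima, but the table also lists genes below it.

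limma (3.58.1, R 4.3.3; lmFit and eBayes with trend) was fitted on log2(normalized count + 1) over 24303 genes and all 8 libraries, with 4 group means and 4 residual degrees of freedom, two-sided. The procedure was tested on simulated data. An exact permutation test of 2 against 2 libraries cannot pass 0.05. The 6 comparisons share libraries, since each condition enters 3 of them.

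The members and lists were chosen with earlier results of these data known. The genes named were the 5 members and, from the wider family, the 3 with the highest mean of each class and the 3 called with the largest difference in each direction of each comparison. Others were chosen after their values were seen, and their calls were not repeated one by one under the alternatives. Lists covered replication-independent histones, histone message processing, chaperones, DNA replication, RNAs without a poly(A) tail and cell markers. Transcripts came from GENCODE vM21 and promoters and synonyms from RefSeq (GRCm38.p6). All 5 members matched. Alternatives were a pseudocount of 10, a mean of at least 50, equal totals or 75th percentiles, 2 conditions alone, the replicate number as a block, a RESUB term, unadjusted p and leaving out each library. Summing *Hist1h2ao* with *Hist1h2ap* and the wider family were added after the data were seen. Python 3.11.15, pandas 2.3.3, numpy 2.4.6 and matplotlib 3.10.9 were used.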

Additional observations from a re-analysis of the deposited data

How the results depend on the processing

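The counts of called genes were small and moved with the settings, given below first for T_Dysf against Acute-7d, against Acute-2d and against Effector, then for Effector against Acute-7d and against Acute-2d. Of the 5 members, 1, 2, 1, 1 and 2 were called. Leaving out 1 library gave between 0 and 1, 0 and 2, 1 and 2, 1 and 2, and 1 and 3. A lone library was then assumed to vary like those of the other conditions. Of the 50 family genes, 2, 3, 5, 11 and 14 were called, and leaving out 1 library gave between 0 and 2, 0 and 3, 1 and 8, 2 and 10, and 2 and 14. Both sets gave 0 for Acute-7d against Acute-2d without any 1 library.

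Animals and cultures behind the replicate numbers are not named, so a pairing is not known. Correlations of replicate differences ran from -0.199 to 0.197 over 6 pairs of conditions, which cannot decide whether equal numbers share an animal or culture. With the replicate block, members called became 0 in T_Dysf against Acute-7d and 0 against Acute-2d, and family genes called became 0, 0, 2, 5 and 9. A term for the RESUB libraries gave members of 0 in T_Dysf against Acute-7d, 0 in T_Dysf against Effector and 1 in Effector against Acute-2d, and family counts of 0, 0, 3 and 1 in T_Dysf against Acute-7d, T_Dysf against Effector and Effector against Acute-7d and Acute-2d. Fits of the 2 conditions alone gave members of 0, 1, 0 and 0 in the first 4 comparisons and family counts of 1, 1, 1, 0 and 2, with fewer samples.

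A pseudocount of 10 gave 1 member in T_Dysf against Acute-2d. Genes with a mean of at least 50 gave 1 member in T_Dysf against Acute-2d and 1 in Effector against Acute-2d, and 7 and 7 family genes in the Effector comparisons, among fewer genes tested. Equal totals and equal 75th percentiles each gave 1 family gene in T_Dysf against Acute-7d. Equal 75th percentiles moved the median of all genes by up to -0.14. Unadjusted p gave 2 members in Effector against Acute-7d and 1 in Acute-7d against Acute-2d, and 8, 8, 15, 24, 28 and 4 family genes. Except where fewer genes or samples show it, the cause was not tested.

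Of 24 called differences of named genes, 24 lost their call in at least 1 alternative, 20 without at least 1 library and 13 with the block, and none changed sign. Of 102 not called, 16 were called in at least 1 alternative. *Hist1h4n* in T_Dysf against Effector ranged from -1.91 to 2.52 without 1 library. With 39 of 50 family genes under a mean of 50, depth and shared sequence limit what single genes show.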
